A study of Mus musculus with 12 samples.

Results

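The 50 genes described here encode the complement cascade, the clotting cascade and the fibrinolytic system: complement components, their receptors and regulators, clotting factors, anticoagulants, and plasminogen activators with their inhibitors. They were listed by gene symbol from pathway knowledge, with earlier results of these data known, and all 50 were found among the 52636 genes of the count files. The RNA was taken from pancreatic tumours, ductal adenocarcinomas, of KPC mice, which develop such tumours because of engineered alleles and in the usual form of the model carry a Cre recombinase under a pancreatic promoter. Every mouse carried the KPC alleles on a mixed background of C57BL/6 and 129, so no group here is free of tumour. The 4 groups were gemcitabine-treated KPC/CDH11+/- mice, gemcitabine-treated KPC/CDH11+/+ mice, untreated KPC/CDH11+/- mice and untreated KPC/CDH11+/+ mice, with 3 mice in each. CDH11 is cadherin 11, through which fibroblasts and related cells adhere, and gemcitabine is a nucleoside analog used against pancreatic cancer. The sources used here give no dose, schedule or age of the mice. The comparisons ask how loss of 1 Cdh11 allele, gemcitabine, and both together go with tumour RNA levels.

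Complement is a set of serum proteins that mark particles for uptake and can perforate membranes. The classical pathway starts with C1q, which binds immune complexes and dying cells and carries the proteases C1r and C1s; these cleave C4 and C2 into an enzyme that cleaves C3. The alternative pathway, built from factors B, D and properdin, amplifies C3 cleavage, while host cells and plasma carry inhibitors that stop it. Clotting starts when tissue factor meets factor VII and ends in thrombin, which cuts fibrinogen; thrombomodulin, protein C and protein S form the brake. Liver cells make most of these proteins in the circulation, but macrophages make C1q, fibroblasts make C1r, C1s and C3, endothelial cells make thrombomodulin, and pancreatic cancers are known for tissue factor and for blood clots in patients.

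Library totals lay between 39388328 and 56559413 expected counts. Levels are given as CPM, counts scaled to the library total and to TMM factors, the trimmed-mean correction for library composition. Cdh11 itself stood at 109, 141 and 71.9 CPM in treated tumours labelled heterozygous, 142, 62.1 and 123 CPM in treated wild-type tumours, 148, 115 and 73.6 CPM in heterozygous tumours without drug, and 225, 283 and 165 CPM in untreated wild-type tumours. Heterozygous over wild-type, it gave a fold of 0.501 without drug (log2 SE 0.37), with no overlap between groups, and a log2 value of -0.02 ± 0.37 with drug (adjusted p = 0.329 and 0.996 in edgeR's quasi-likelihood test), so the treated tumours are called "labelled heterozygous" throughout. Xist, which the silenced X chromosome makes, was at 1322 CPM or more in all 3 treated wild-type libraries and at 1.12 CPM or less in all 3 treated labelled heterozygous ones, so in treated mice the genotype label and the Xist level cannot be told apart. Among untreated mice both kinds of library occurred in each genotype, so Xist was also unequal between treated and untreated mice. Untreated wild-type mouse 2 had 0.807 CPM of Xist and 203 CPM of Y-linked RNA. All other wild-type libraries had 1322 CPM or more of Xist. Leaving out that mouse therefore also changes the balance of Xist, and is not a separate check from a covariate for Xist and Y-linked RNA. Untreated wild-type mouse 2 gave the highest level of 19 of the 50 genes. Many of the counts and gene values that move without it are also given without it, but the order of group means is not.

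The levels spanned the range from absent to among the most abundant. By mean over the 12 tumours 7 genes were under 1 CPM, 9 between 1 and 10, 21 between 10 and 100, and 13 at 100 or above. Per kilobase of exon, Clu, which encodes the chaperone clusterin, an inhibitor of the membrane attack complex, led at 1750 CPM per kb. C3 followed at 162 CPM per kb, then C1qa at 129, Serping1, the C1 inhibitor, at 115, C1qb at 94.7, C4b at 85.6 and F2r, the thrombin receptor PAR1, at 76.8 CPM per kb. At the other end F2, which encodes prothrombin, had 63 counts over the 12 libraries and Plg, which encodes plasminogen, had 8; both are liver genes, as is C3, which stood second. These 2 genes did not pass the filter on low counts, which leaves 48 genes with a test.

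**Figure D1:**
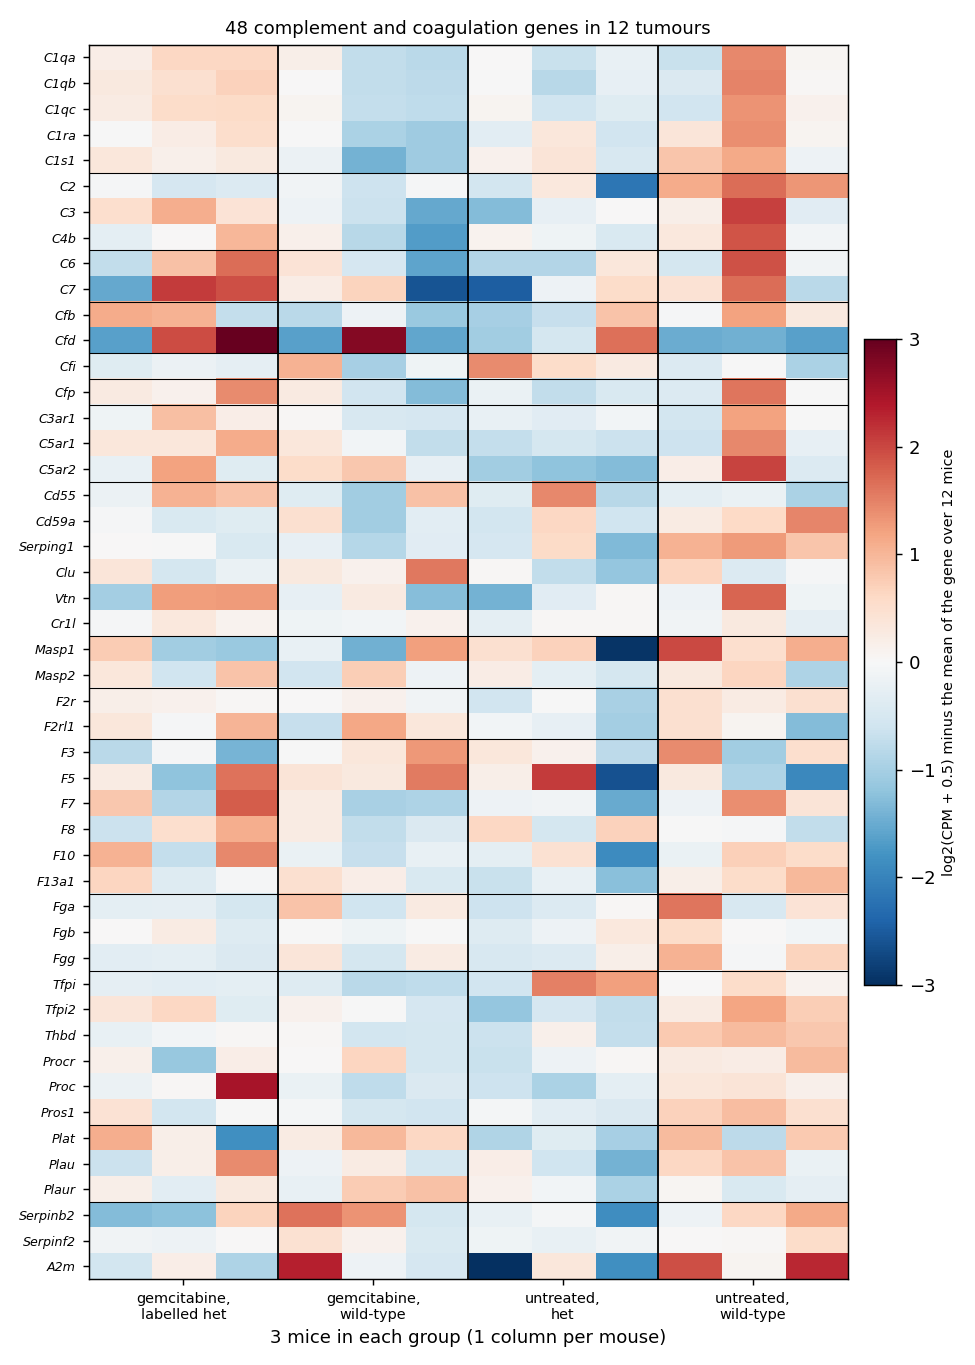
The heat map shows log2(CPM + 0.5) of the 48 tested genes in each of the 12 tumours as a difference from the mean of the gene, with 1 column per mouse, 3 per group, and rows in the order of their roles. The column of untreated wild-type mouse 2 is red in most complement rows, and that of untreated heterozygous mouse 3 is blue in many rows; they hold the highest level of 19 genes and the lowest level of 14.

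The first step of the classical pathway is encoded at a pair of loci. C1qa, C1qc and C1qb lie in line on the minus strand of chromosome 4, from chr4:136895917-136898803 for C1qa to chr4:136880129-136886187 for C1qb in GRCm38, with gaps of 2851 and 3616 bases. C1ra and C1s1 lie on opposite strands of chromosome 6, 6901 bases apart. RefSeq promoters of the GRCm38.p6 build were at hand for 35 of the 50 genes. The sequences of 250 bases before the start of C1qb (chr4:136886201-136886450, minus strand) and of C1qc (chr4:136892915-136893164, minus strand) are shown because the C1q chains kept the steadiest ratios to each other among neighbouring genes of the set; C1qa is not shown. Capitals mark GAGGAA, the core of sites of the myeloid factor PU.1, or its complement TTCCTC.
C1qb: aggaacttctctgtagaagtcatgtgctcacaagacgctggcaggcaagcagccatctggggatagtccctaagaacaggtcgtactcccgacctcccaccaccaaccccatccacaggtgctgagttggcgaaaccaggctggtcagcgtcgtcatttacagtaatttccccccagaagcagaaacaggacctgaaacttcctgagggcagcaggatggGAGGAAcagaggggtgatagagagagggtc
C1qc: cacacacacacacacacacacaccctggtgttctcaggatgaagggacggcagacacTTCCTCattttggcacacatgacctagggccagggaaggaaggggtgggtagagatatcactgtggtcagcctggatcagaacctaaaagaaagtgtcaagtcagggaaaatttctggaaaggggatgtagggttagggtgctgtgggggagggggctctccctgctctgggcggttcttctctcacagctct

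Both promoters hold the 6 letters on 1 of the strands, 30 bases before the RefSeq start in C1qb and 193 bases before it in C1qc. The RefSeq start of C1qb lies some bases before the start of its GENCODE gene. The bases just after that RefSeq start were found in no GENCODE transcript of C1qb, while those of C1qc were found in a transcript of C1qc. The same letters occur in 23.3% of the 32851 RefSeq promoters of this length. Of the 35 genes with a promoter, 7 had GAGGAA, 8 had TGANTCA, the letters of AP-1 sites (6.7% of all promoters), 5 had TTCNNNGAA, the letters of STAT sites (7.0%), and 1 had a pair of GAAA runs spaced by any 2 bases, the letters of interferon-response sites (3.0%), with both strands read and the first listed start of each gene used. A TATAAA box stood in 5 (12.4%). A match is a run of letters only; binding was not measured here.

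No gene of the set passed an adjusted p of 0.05 in edgeR in any of 7 comparisons. The text below therefore gives levels, fold changes and unadjusted p-values, and says only in which tumours a gene was higher or lower. In brackets beside counts of genes stands the share of all genes tested that met the same rule, over 24065 genes unless a library or a tool is changed.

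Heterozygous tumours were set against wild-type tumours without drug first. Thbd, Tfpi2, C2, F2r and Pros1 had the smallest p-values, and all were lower in heterozygous tumours, by log2 fold changes between -1.88 for C2 and -0.87 for F2r. Of the 48 genes tested 42 had a log2 fold change below 0 (46.3% of all genes) and 6 above 0 (53.7%), and the median was -0.95, against 0.04 over all genes. None was called by edgeR (0.0166% of all genes), while 12 had an unadjusted p under 0.05 (12.2%), and 11 of these were lower in heterozygous tumours (6.65%) and 1, Cfi, was higher (5.51%). In 11 genes all 3 heterozygous tumours lay below all 3 wild-type tumours (8.41%), and in 2, Cfi and Cfd, they lay above (7.36%). Without untreated wild-type mouse 2 there were again 12 with an unadjusted p under 0.05 (9.38% of all genes), and 38 were below 0 (44.5%). The Wald test of DESeq2 called 7 genes, all lower, with adjusted p between 0.00174 and 0.0397 (2.94% of all genes). The p-values weigh a group difference only against the spread between mice, estimated over all 12 libraries with 3 in a group. Lower RNA in a piece of tumour can mean fewer cells of a type or less RNA in each, which cannot be told apart in bulk tissue.

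Treated labelled heterozygous tumours were next set against treated wild-type tumours. Here 32 of 48 genes had a log2 fold change above 0 (46.9% of all genes) and 16 below 0 (53.1%), with a median of 0.35 against -0.03 over all genes. None was called (0.00416%), and 5 had an unadjusted p under 0.05 (7.55%). These were Proc, C1s1, C3 and Cfb, which were higher (4.66%), and F3, which was lower (2.89%). In 8 genes the labelled heterozygous tumours lay above all treated wild-type tumours (7.13%), all 5 genes of the C1 complex among them, and in 1 gene, F3, they lay below (6.59%). DESeq2 also called none (1.05% of all genes). With the ratio of Xist to Y-linked RNA as a covariate none of the 48 had an unadjusted p under 0.05 (1.97% of all genes), and 27 in place of 16 were below 0 (52.8%). The 5 became 8 without untreated wild-type mouse 1 (7.48%), 12 without untreated wild-type mouse 2 (8.21%), 12 without treated wild-type mouse 1 (8.37%), 1 without treated wild-type mouse 3 (5.66%) and 3 without treated labelled heterozygous mouse 1 (7.52%).

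Gemcitabine was then compared with no treatment within each genotype; the untreated wild-type tumours enter both this and the first comparison, and so do the other groups in turn. In wild-type tumours 38 of 48 genes had a log2 fold change below 0 (48.9% of all genes), with a median of -0.85 against 0.01 over all genes. None was called (0% of all genes), 14 had an unadjusted p under 0.05 (8.60%), 12 of them lower in treated tumours (4.55%) and 2 higher (4.05%). With no overlap, 12 genes lay below (7.18%) and 1, F5, lay above (6.52%). Without untreated wild-type mouse 2 the number with an unadjusted p under 0.05 was 6 (5.88% of all genes), and 34 genes were below 0 (46.8%). It was 9 without treated wild-type mouse 2 (5.33%), 7 without treated wild-type mouse 3 (5.90%) and 7 with the covariate for Xist and Y-linked RNA (6.10%). DESeq2 called 4 genes, Thbd, Pros1, C1s1 and Serping1, all lower, with adjusted p between 0.0127 and 0.0481 (0.521% of all genes). In tumours labelled heterozygous 40 of 48 genes had a log2 fold change above 0 (46.8% of all genes) and 8 below 0 (53.2%), with a median of 0.51 against -0.03. None was called by edgeR (0.00831%) or DESeq2 (0.754%), and 8 had an unadjusted p under 0.05 (7.90%), 6 higher (4.42%) and 2 lower (3.48%). With no overlap, 11 genes lay above the untreated heterozygous tumours (6.64%) and 1, Cfi, lay below (6.08%). The 8 became 3 with the covariate (4.23%), 12 without untreated wild-type mouse 2 (8.53%), 5 without untreated heterozygous mouse 1 (6.90%) and 5 without treated labelled heterozygous mouse 3 (4.53%).

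The difference between these 2 drug effects was tested as an interaction. It was above 0 for 39 of 48 genes (45.8% of all genes) and below 0 for 9 (54.2%), with a median of 1.31 against -0.07, and 23 genes had an unadjusted p under 0.05 (12.7%), of which 22 were above 0 (7.14%) and 1, Cfi, was below (5.52%). None was called by edgeR (0.00831%), the lowest adjusted p being 0.252, while DESeq2 called Tfpi2, Thbd, Pros1 and C3 with adjusted p between 0.0126 and 0.0379 (2.95% of all genes). The 23 became 13 without untreated wild-type mouse 2 (8.85% of all genes) and 6 with the covariate for Xist and Y-linked RNA (6.15%). They became 25 without untreated wild-type mouse 1 (12.6%). By group mean, 16 of the 48 genes were highest in treated labelled heterozygous tumours (21.1% of all genes tested) and 24 in untreated wild-type ones (25.9%). The 24 include C3, C1qa, C1qb and C1qc, each with its highest level in untreated wild-type mouse 2. C3 stood at 2754 CPM in that mouse, against a group mean of 1341 CPM and 1074 CPM in treated labelled heterozygous tumours. The order of means was not redone without that mouse. Of the same 48, 15 were lowest in treated wild-type tumours (22.6%) and 24 in untreated heterozygous ones (23.4%).

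**Figure D2:**
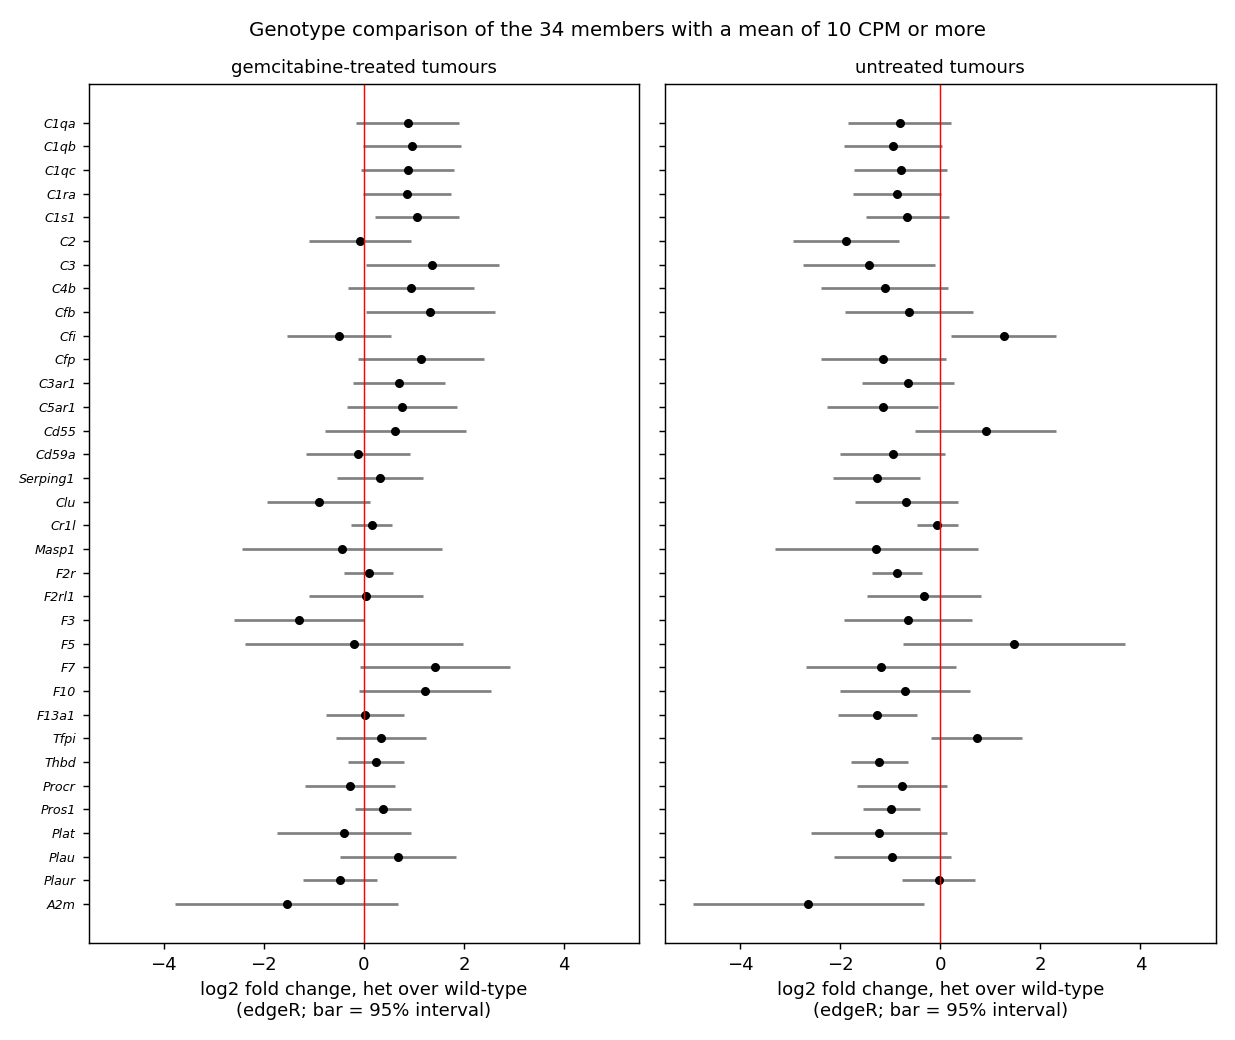
Log2 fold changes of heterozygous over wild-type (edgeR) with 95% intervals are drawn for the 34 genes with a mean of 10 CPM or more, in treated tumours on the left and untreated tumours on the right, with the red line at 0. Most points lie left of 0 without drug, with C2 at -1.88 and Thbd at -1.22, and all 5 genes of the C1 complex lie right of 0 with drug and left of it without; untreated wild-type mouse 2 carries the values of C1qa, C1qb, C1qc and C3 in untreated tumours.

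Over both treatments the genotype comparison gave 11 genes with an unadjusted p under 0.05 (7.67% of all genes), all lower in heterozygous tumours (3.96%) and none higher (3.70%), and none was called (0.0332%). In that comparison 29 genes were below 0 (48.7%) and 19 above (51.3%), and in none did all 6 tumours labelled heterozygous lie above (0.133%) or below (0.150%) all 6 wild-type ones. The 11 became between 5 and 7 with the covariate or without any 1 of untreated wild-type mice 1 and 3, untreated heterozygous mice 1 and 3, treated wild-type mouse 1 and treated labelled heterozygous mouse 3 (4.39 to 7.82% of all genes). They became 13 without treated labelled heterozygous mouse 1 (7.81%). C2 had the smallest p at -0.97 ± 0.33, followed by A2m at -2.09 ± 0.73, C5ar2, Thbd and Fga. Over both genotypes the drug comparison gave 8 such genes (4.45% of all genes), 6 lower in treated tumours (2.20%) and 2 higher (2.25%), and none was called (0.00831%). It had 24 genes above 0 (49.1%) and 24 below (50.9%), and no gene without overlap above (0.0540%) or below (0.0457%). The 8 became between 1 and 5 without any 1 of untreated wild-type mice 2 and 3, untreated heterozygous mouse 2, treated wild-type mice 2 and 3 and each treated labelled heterozygous mouse (3.02 to 6.14% of all genes). They became 11 without treated wild-type mouse 1 (6.55%). DESeq2 called none of the 48 in either (1.29% and 0.121% of all genes). The genes that led were Tfpi at -1.09 ± 0.29 and Cfd at 4.70 ± 1.80.

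Thbd encodes thrombomodulin, the endothelial protein that turns thrombin from a clotting enzyme into an activator of protein C (chr2:148404466-148408188, minus strand). It stood at 22.3, 24.7 and 26.9 CPM in treated labelled heterozygous tumours, 26.7, 17.6 and 18.1 CPM in treated wild-type tumours, 16.7, 29.1 and 15.7 CPM in heterozygous tumours without drug, and 45.6, 51.2 and 46.1 CPM in untreated wild-type tumours. The 3 untreated wild-type tumours were the highest of all 12, and the other 3 groups overlapped. The log2 fold change of heterozygous over wild-type without drug was -1.22 ± 0.26 (adjusted p = 0.161 in edgeR and 0.00228 in DESeq2), and over 18 other settings of edgeR the adjusted p lay between 0.0703 and 0.400. Gemcitabine over no treatment in wild-type tumours gave -1.19 ± 0.26, and the difference between the drug effects was 1.46 ± 0.37.

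Pros1, which encodes protein S, the cofactor of activated protein C and a ligand of TAM receptors (chr16:62854307-62929346, plus strand), had the same layout. Its levels were 111, 55.6 and 81.4 CPM in treated labelled heterozygous tumours, 78.4, 56.1 and 54.9 CPM in treated wild-type tumours, 78.2, 65.2 and 60.8 CPM in heterozygous tumours without drug, and 131, 156 and 114 CPM in untreated wild-type tumours. Again the untreated wild-type tumours lay above the rest. The genotype difference without drug was -0.97 ± 0.26 on the log2 scale and the drug difference in wild-type tumours was -1.08 ± 0.26, with adjusted p of 0.214 and 0.559 in edgeR.

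Tfpi2, a matrix-bound inhibitor of plasmin and of tissue factor with factor VII, was a gene of low level (chr6:3962595-3988919, minus strand). It had 4.52, 5.45 and 2.53 CPM in treated labelled heterozygous tumours, 3.73, 3.35 and 2.23 CPM in treated wild-type tumours, 1.25, 2.24 and 1.83 CPM in heterozygous tumours without drug, and 4.14, 8.32 and 5.93 CPM in untreated wild-type tumours. Untreated heterozygous tumours lay below untreated wild-type and below treated labelled heterozygous tumours, and treated wild-type tumours lay below untreated ones, each without overlap. The log2 fold changes were -1.79 ± 0.40 for genotype without drug, -0.98 ± 0.39 for drug in wild-type and 1.23 ± 0.40 for drug in tumours labelled heterozygous; the adjusted p of the difference between drug effects, 2.21 ± 0.56, was 0.252 in edgeR and 0.0126 in DESeq2.

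The other anticoagulants did not share 1 layout. Tfpi, the circulating inhibitor of tissue factor, stood at 16.3, 15.7 and 16.1 CPM in treated labelled heterozygous tumours, 15.1, 11.1 and 11.6 CPM in treated wild-type tumours, 13.2, 57.0 and 46.7 CPM in heterozygous tumours without drug, and 19.9, 29.2 and 21.4 CPM in untreated wild-type tumours. A pair of untreated heterozygous tumours stood far above all others. Proc, the zymogen protein C, had 1.55, 1.86 and 12.4 CPM in treated labelled heterozygous tumours, 1.53, 0.860 and 1.22 CPM in treated wild-type tumours, 1.01, 0.691 and 1.39 CPM in heterozygous tumours without drug, and 2.45, 2.53 and 2.09 CPM in untreated wild-type tumours. Its log2 fold change of 2.13 ± 0.71 in treated tumours was carried by mouse 3 at 12.4 CPM, though the groups did not overlap, and was 0.51 without that mouse. Procr, the receptor of protein C on endothelium, averaged 18.1 ± 7.99 CPM in treated labelled heterozygous, 21.9 ± 9.17 in treated wild-type, 16.9 ± 4.21 in untreated heterozygous and 28.9 ± 8.61 in untreated wild-type tumours (SD, n = 3 each).

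Of 10 endothelial markers none was at 0 in any library, and their sum was 344 to 416 CPM in treated labelled heterozygous, 321 to 415 CPM in treated wild-type, 223 to 329 CPM in untreated heterozygous and 458 to 669 CPM in untreated wild-type tumours. The part of endothelial content in the levels of Thbd, Procr and Tfpi was not tested.

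**Figure D3:**
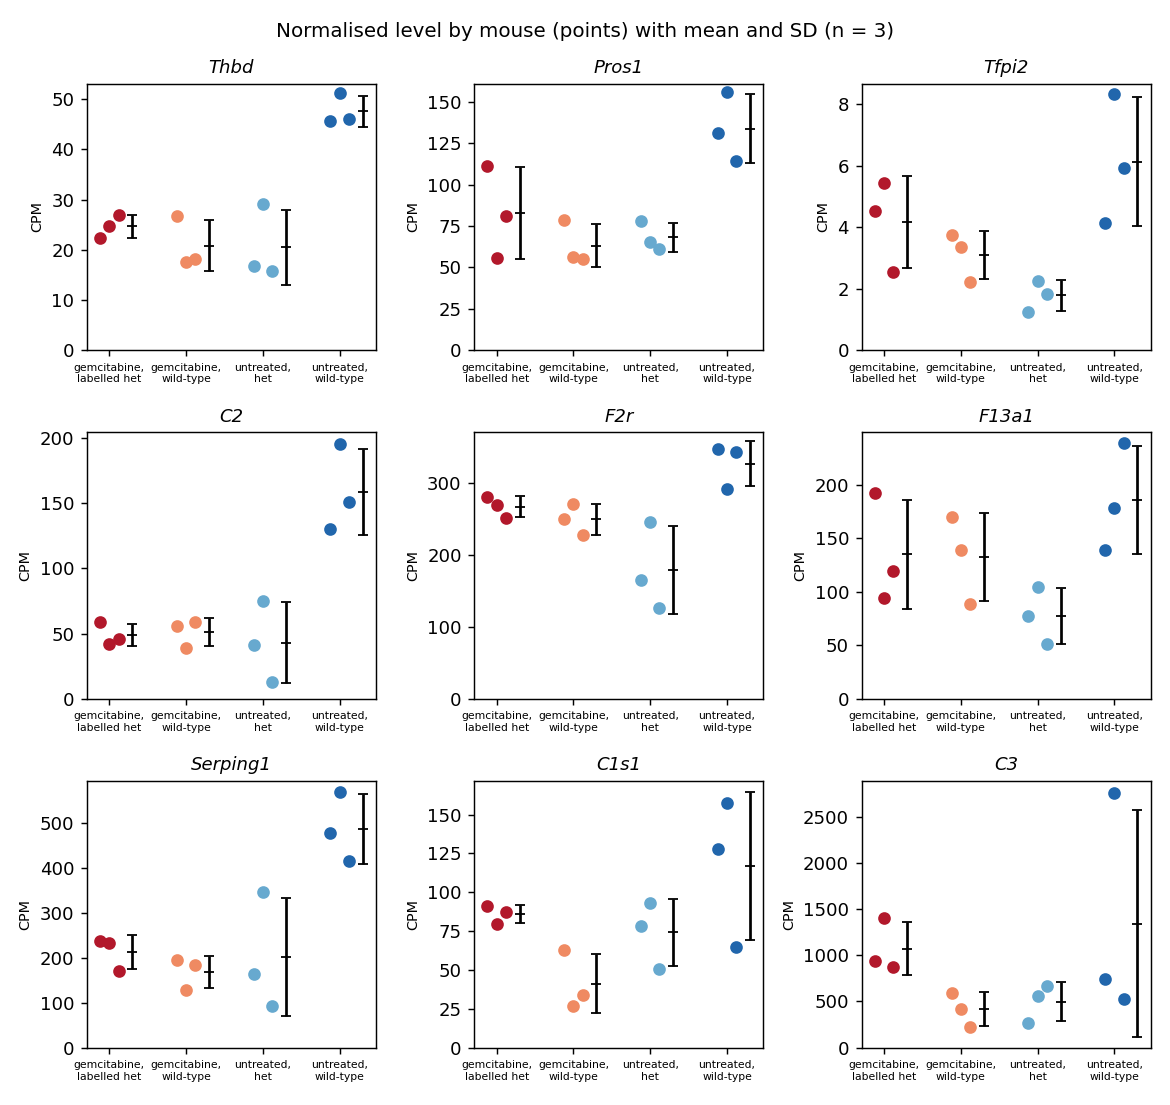
Each panel plots the CPM of 1 gene in the 12 tumours by group on an axis from 0, with bars for mean and SD over 3 mice. Thbd, Pros1, C2 and Serping1 stand highest in all 3 untreated wild-type tumours (Thbd 45.6 to 51.2 CPM there), while C3 is set apart by untreated wild-type mouse 2 at 2754 CPM.

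The C1 complex had all 5 genes on the same side of 0 in each of the 4 comparisons between groups, though not without untreated wild-type mouse 2. C1qa was at 138, 187 and 185 CPM in treated labelled heterozygous tumours, 137, 71.8 and 68.5 CPM in treated wild-type tumours, 122, 76.1 and 102 CPM in heterozygous tumours without drug, and 75.2, 326 and 126 CPM in untreated wild-type tumours. The treated labelled heterozygous tumours lay above the treated wild-type and the untreated heterozygous ones, while the untreated wild-type group ranged from among the lowest to the highest of all. The log2 fold changes were 0.88 ± 0.47 for genotype with drug, -0.81 ± 0.47 for genotype without drug and -0.92 ± 0.47 for drug in wild-type tumours. C1qb gave 0.96 ± 0.45, -0.94 ± 0.45 and -1.07 ± 0.45, and C1qc 0.88 ± 0.42, -0.79 ± 0.42 and -0.93 ± 0.42. The difference between drug effects was 1.90 ± 0.63 for C1qb (adjusted p = 0.278 in edgeR). The values without drug rested on untreated wild-type mouse 2: without it the genotype value was 0.01 ± 0.36 for C1qa, -0.13 ± 0.32 for C1qb and -0.08 ± 0.33 for C1qc. The drug value in wild-type tumours was then -0.11 ± 0.36 for C1qa, -0.26 ± 0.32 for C1qb and -0.22 ± 0.33 for C1qc, and the difference between drug effects 1.09 ± 0.42 for C1qb; with drug the genotype value of C1qa was 0.88 ± 0.32.

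The 3 chains of C1q, which assemble into 1 protein, kept nearly fixed shares of their sum in all 12 tumours: 34.8 to 39.8% for C1qa, 26.1 to 31.5% for C1qb and 31.8 to 35.7% for C1qc, while the sum itself ran from 185 to 862 CPM. The ratio of C1qa to C1qc varied 1.18-fold over the tumours, and that of C1ra to C1s1 1.94-fold. Other neighbours were looser: C5ar1 to C5ar2 varied 6.04-fold, F2r to F2rl1 7.02-fold, F7 to F10 2.68-fold, and C2 to Cfb, whose ends lie 85 bases apart, 18.4-fold. Of 14 macrophage markers none was at 0 in any library, and their sum ran from 1491 to 3004 CPM in treated labelled heterozygous, 662 to 1523 CPM in treated wild-type, 731 to 1182 CPM in untreated heterozygous and 953 to 3751 CPM in untreated wild-type tumours. Lyz2 and Mrc1 were the largest of these markers in every library, so the sum follows them most. The part of macrophage content in the C1q levels was not tested.

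**Figure D4:**
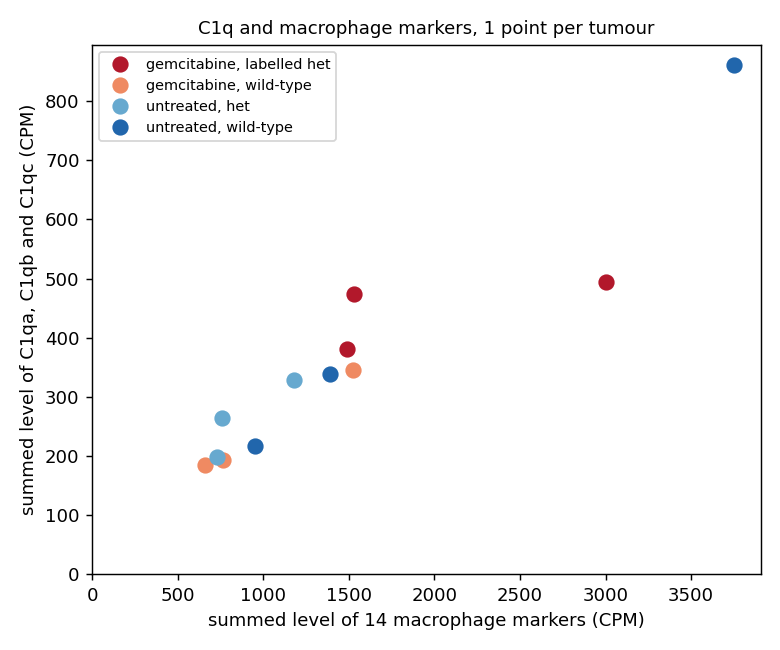
Each point is 1 tumour, with the summed CPM of 14 macrophage markers across and the summed CPM of C1qa, C1qb and C1qc upwards, coloured by group. Untreated wild-type mouse 2 stands alone at 3751 and 862 CPM. Treated labelled heterozygous mouse 3 has about as much C1q as mouse 2 of its group (495 and 474 CPM). Their marker sums are 3004 and 1529 CPM. Lyz2 and Mrc1, the largest parts of these sums, are at 1315 and 767 CPM in mouse 3 and at 567 and 249 CPM in mouse 2.

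C1ra and C1s1, the proteases carried by C1q, are genes of stromal cells. C1s1 had 90.8, 79.3 and 87.1 CPM in treated labelled heterozygous tumours, 62.6, 26.6 and 34.0 CPM in treated wild-type tumours, 78.5, 93.0 and 50.8 CPM in heterozygous tumours without drug, and 128, 158 and 64.6 CPM in untreated wild-type tumours. The treated wild-type tumours lay below both groups they are compared with. The drug difference in wild-type tumours was -1.51 ± 0.38 (adjusted p = 0.559 in edgeR and 0.0442 in DESeq2; 0.292 to 0.899 over 18 other settings of edgeR), against 0.21 ± 0.37 in those labelled heterozygous. C1ra followed at -1.34 ± 0.40 and 0.40 ± 0.40; without untreated wild-type mouse 2 its drug value in wild-type tumours was -0.82 ± 0.36, and that of C1s1 was -1.22 ± 0.40. Reads of the near-identical copies C1s2 and C1rb made up 6.73% and 4.49% of the paired sums, and with the copies added the values stayed uncalled.

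C2, the C2 protease component of the classical and lectin pathways, had one of the clearest separations (chr17:34862604-34898265, minus strand). It stood at 58.5, 42.3 and 45.5 CPM in treated labelled heterozygous tumours, 55.7, 39.2 and 58.7 CPM in treated wild-type tumours, 40.9, 75.3 and 13.1 CPM in heterozygous tumours without drug, and 130, 195 and 151 CPM in untreated wild-type tumours. No tumour of the other 3 groups reached the lowest untreated wild-type value. The log2 fold change for genotype without drug was -1.88 ± 0.48 (adjusted p = 0.208 in edgeR, 0.00985 in DESeq2) and that for drug in wild-type tumours -1.63 ± 0.47. Its locus overlaps Zbtb12 on the other strand and the read-through gene model Gm20547, and the strand setting of the counting is unknown here.

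C3, on which all pathways converge, and C4b, the target of C1s, had the highest mean CPM of the components. Per kilobase of exon C4b stood below C1qa and C1qb. C3 had 936, 1409 and 877 CPM in treated labelled heterozygous tumours, 595, 423 and 227 CPM in treated wild-type tumours, 270, 562 and 668 CPM in heterozygous tumours without drug, and 745, 2754 and 525 CPM in untreated wild-type tumours. The 3 labelled heterozygous treated tumours exceeded the treated wild-type and the untreated heterozygous ones; the untreated wild-type group overlapped all others. Log2 fold changes were 1.37 ± 0.60 for genotype with drug, -1.42 ± 0.60 for genotype without drug, and 2.80 ± 0.85 for the difference between drug effects (adjusted p = 0.259 in edgeR, 0.0379 in DESeq2; 0.201 to 0.824 over 17 other settings of edgeR). Without untreated wild-type mouse 2 the genotype value of C3 without drug was -0.34 ± 0.45 and the difference between drug effects 1.72 ± 0.61. With the covariate for Xist and Y-linked RNA the genotype value of C3 with drug was -0.42.

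C4b ran from 127 CPM in a treated wild-type tumour to 1494 CPM in untreated wild-type mouse 2, with 331 to 811 CPM in treated labelled heterozygous tumours and 294 to 440 CPM in untreated heterozygous tumours. Its near copy C4a took 1.57% of their joint counts. Masp1, a protease of the lectin pathway, spread from 2.60 to 93.1 CPM with no separation of groups. Masp2 had 361 counts in all, in a locus that overlaps Tardbp on the other strand with 99379 counts, so its level is uncertain. The terminal components C6 and C7, parts of the membrane attack complex, had means of 2.39 and 4.30 CPM and overlapped in every comparison.

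In the alternative pathway Cfb, which encodes factor B, the protease of the amplifying convertase, had 311, 293 and 86.3 CPM in treated labelled heterozygous tumours, 80.7, 129 and 65.1 CPM in treated wild-type tumours, 71.8, 87.6 and 258 CPM in heterozygous tumours without drug, and 139, 329 and 176 CPM in untreated wild-type tumours. Treated wild-type tumours lay below untreated wild-type ones, and other pairs of groups overlapped. Cfp, or properdin, an X-linked stabiliser of that convertase made by myeloid cells, ranged over 28.3 to 69.1 CPM in treated labelled heterozygous, 10.2 to 30.9 CPM in treated wild-type, 15.1 to 22.4 CPM in untreated heterozygous and 19.0 to 79.0 CPM in untreated wild-type tumours.

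Cfd encodes factor D or adipsin, a protease best known from fat cells. It was at 0, 5.47 and 35.6 CPM in treated labelled heterozygous tumours, 0, 9.87 and 0.024 CPM in treated wild-type tumours, 0.241, 0.561 and 4.31 CPM in heterozygous tumours without drug, and 0.0441, 0.0691 and 0 CPM in untreated wild-type tumours. Single tumours carry its large fold changes, and the drug value over both genotypes ran from 0.77 to 5.74 over 17 other settings of edgeR. Adipoq, which encodes the fat-cell hormone adiponectin, was highest in the library with most Cfd, at 4.41 CPM in treated labelled heterozygous mouse 3. It stood at 0.627 CPM in treated wild-type mouse 2. Plin1, another fat-cell gene, was also highest in the library with most Cfd, at 1.92 CPM. Cidec, a further fat-cell gene, did not follow Cfd. It had 8.84 CPM in that library, but also 8.82 CPM in untreated heterozygous mouse 1 and 7.29 CPM in untreated wild-type mouse 1. The part of fat tissue in these levels was not tested.

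All 3 receptors of the complement fragments C3a and C5a, which are found on myeloid cells, were lower on average in untreated heterozygous than untreated wild-type tumours. Each had its highest level in untreated wild-type mouse 2. C3ar1 averaged 34.9 ± 23.0 CPM in untreated wild-type and 22.4 ± 2.06 CPM in untreated heterozygous tumours (SD, n = 3 each). Its highest value of all 12 tumours, 61.1 CPM, was in untreated wild-type mouse 2 and its lowest, 17.7 CPM, in untreated wild-type mouse 1. C5ar2, a decoy-like receptor of C5a, was at 2.08, 6.49 and 1.86 CPM in treated labelled heterozygous tumours, 3.93, 4.76 and 2.06 CPM in treated wild-type tumours, 0.966, 0.799 and 0.734 CPM in heterozygous tumours without drug, and 2.95, 11.8 and 1.77 CPM in untreated wild-type tumours. The 3 untreated heterozygous tumours were the lowest of all 12. Its log2 fold change was -2.72 ± 0.74 for genotype without drug and 2.06 ± 0.72 for drug in tumours labelled heterozygous (adjusted p = 0.226 and 0.593 in edgeR). Without untreated wild-type mouse 2, at 11.8 CPM, the genotype value was -1.49 ± 0.58.

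C5ar1, the signalling receptor of C5a, gave 21.6, 21.5 and 37.3 CPM in treated labelled heterozygous tumours, 21.6, 15.8 and 9.92 CPM in treated wild-type tumours, 10.1, 11.5 and 10.7 CPM in heterozygous tumours without drug, and 10.7, 46.6 and 14.1 CPM in untreated wild-type tumours. Treated labelled heterozygous tumours lay above untreated heterozygous ones by 1.32 ± 0.51 (log2) without overlap. C3ar1 ranged from 17.7 to 61.1 CPM and its groups overlapped in all comparisons.

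Regulators differed among themselves. Serping1, the serpin that blocks C1r, C1s and kallikrein, had 236, 232 and 170 CPM in treated labelled heterozygous tumours, 195, 128 and 183 CPM in treated wild-type tumours, 164, 346 and 92.2 CPM in heterozygous tumours without drug, and 476, 567 and 414 CPM in untreated wild-type tumours. The untreated wild-type tumours were again the 3 highest. Genotype without drug gave -1.27 ± 0.40 and drug in wild-type tumours -1.52 ± 0.40 (adjusted p = 0.269 and 0.559 in edgeR; 0.0481 in DESeq2 for the second). Cfi, the protease that inactivates C3b, ran the other way, with 20.6, 23.6 and 21.9 CPM in treated labelled heterozygous tumours, 55.6, 13.1 and 24.1 CPM in treated wild-type tumours, 71.9, 39.5 and 32.4 CPM in heterozygous tumours without drug, and 19.8, 26.4 and 13.6 CPM in untreated wild-type tumours. Untreated heterozygous tumours lay above untreated wild-type and treated labelled heterozygous ones, and 1.27 ± 0.48 on the log2 scale was its genotype value without drug.

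Clu had 6883, 3668 and 4613 CPM in treated labelled heterozygous tumours, 6492, 5865 and 16020 CPM in treated wild-type tumours, 5447, 3176 and 2392 CPM in heterozygous tumours without drug, and 8384, 4037 and 5189 CPM in untreated wild-type tumours. Treated wild-type mouse 3 stood apart at 16020 CPM, and the groups overlapped in each comparison. The sum of 12 ductal epithelium markers was also highest in that library, at 9494 CPM. It ran over 3704 to 5056 CPM in treated labelled heterozygous and 4658 to 9494 CPM in treated wild-type tumours. Untreated heterozygous tumours had 4718 to 6241 CPM and untreated wild-type ones 3690 to 5448 CPM. The part of epithelial content in the levels of Clu, F3 and Plaur was not tested. The membrane inhibitors were at lower levels than Clu: Cr1l, the rodent regulator Crry, was the steadiest gene of the set, with 45.2 to 68.6 CPM over the 12 tumours, a 1.52-fold range. Cd55, which speeds decay of convertases, ran from 7.55 to 44.2 CPM and Cd59a, which blocks membrane attack, from 5.55 to 34.0 CPM.

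On the clotting side F3, tissue factor, the trigger of coagulation, had 43.3, 74.2 and 28.6 CPM in treated labelled heterozygous tumours, 75.4, 96.6 and 188 CPM in treated wild-type tumours, 96.9, 83.2 and 44.1 CPM in heterozygous tumours without drug, and 205, 36.8 and 108 CPM in untreated wild-type tumours. Treated labelled heterozygous tumours lay just below treated wild-type ones, at 74.2 CPM for the highest against 75.4 CPM for the lowest. The log2 fold change was -1.30 ± 0.59 (adjusted p = 0.659 in edgeR) and was 0.19 with the covariate for Xist and Y-linked RNA.

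F13a1, the subunit of factor XIII that cross-links fibrin, is also a gene of macrophages. It had 192, 94.1 and 119 CPM in treated labelled heterozygous tumours, 170, 140 and 88.3 CPM in treated wild-type tumours, 77.3, 104 and 51.4 CPM in heterozygous tumours without drug, and 139, 179 and 240 CPM in untreated wild-type tumours. Only the untreated genotype pair separated, at -1.26 ± 0.36 (adjusted p = 0.240 in edgeR, 0.0397 in DESeq2). F5, the cofactor of factor X, varied 27.2-fold over the tumours, with the extremes of 330 and 12.1 CPM in 2 untreated heterozygous mice. F7 and F10, neighbours on chromosome 8 that encode factor VII, the partner of tissue factor, and factor X, its target, ran from 4.37 to 48.6 CPM and from 6.71 to 71.9 CPM, both with the highest value in treated labelled heterozygous mouse 3. F8 overlaps Fundc2, which had 12533 counts against 3981, so its mean of 7.12 CPM is uncertain.

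F2r encodes PAR1, the receptor that thrombin cuts on fibroblasts, endothelium and tumour cells (chr13:95601803-95618487, minus strand). Levels were 280, 270 and 252 CPM in treated labelled heterozygous tumours, 250, 272 and 229 CPM in treated wild-type tumours, 166, 246 and 127 CPM in heterozygous tumours without drug, and 348, 292 and 343 CPM in untreated wild-type tumours. Untreated wild-type tumours were the 3 highest of all, and treated labelled heterozygous tumours lay above untreated heterozygous ones. The genotype value without drug was -0.87 ± 0.23 (adjusted p = 0.208 in edgeR, 0.0191 in DESeq2; 0.0988 to 0.409 over 18 other settings of edgeR). F2rl1, which encodes PAR2, ranged from 27.0 to 150 CPM.

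Of 12 fibroblast markers none was at 0 in any library, with sums of 4382 to 8522 CPM in treated labelled heterozygous, 6130 to 14940 CPM in treated wild-type, 4282 to 7142 CPM in untreated heterozygous and 11300 to 17520 CPM in untreated wild-type tumours. The collagen genes Col1a1, Col1a2 and Col3a1 carried most of that sum in every library, and not all other markers followed them. Treated labelled heterozygous mouse 3 had the lowest Col1a1, at 572 CPM, but 294 CPM of Dcn, more than any untreated heterozygous tumour. The part of fibroblast content in the levels of F2r, C1s1, C3 and Serping1 was not tested. Fibrinogen chains Fga, Fgb and Fgg had means of 0.439, 0.165 and 0.270 CPM, with 2.03 CPM of Fga in untreated wild-type mouse 1 as the highest value. The 16 hepatocyte markers summed to 692 to 2026 CPM in treated labelled heterozygous, 1184 to 2342 CPM in treated wild-type, 724 to 2489 CPM in untreated heterozygous and 2382 to 4703 CPM in untreated wild-type tumours, and their part in these levels was not tested. Apob, at up to 3850 CPM, Trf, at 182 to 1065 CPM, and Hp, at 11.6 to 237 CPM, carried most of that sum. Alb, which defines hepatocytes, was at 9.48 CPM in untreated wild-type mouse 3 and at 2.01 CPM or less in the other 11 libraries. Apoc3 and Cps1 were at 0 in 9 libraries each, and treated wild-type mouse 1 stood apart with 120 CPM of Apoa1, 48.7 CPM of Cyp3a11 and 19.5 CPM of Cps1.

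In fibrinolysis Plat, tissue plasminogen activator, ran over 79.9 to 614 CPM in treated labelled heterozygous, 340 to 562 CPM in treated wild-type, 144 to 224 CPM in untreated heterozygous and 166 to 551 CPM in untreated wild-type tumours. Plau, urokinase, spread from 13.5 to 99.0 CPM. Its receptor Plaur had 126, 88.2 and 135 CPM in treated labelled heterozygous tumours, 95.5, 187 and 205 CPM in treated wild-type tumours, 120, 104 and 56.9 CPM in heterozygous tumours without drug, and 115, 80.6 and 92.0 CPM in untreated wild-type tumours. Drug over no treatment in wild-type tumours was 0.76 ± 0.34 for Plaur, with overlapping groups. A2m, the broad protease trap alpha-2-macroglobulin, had the widest spread of genes above 10 CPM, from 0.856 to 61.6 CPM, and Serpinb2, the inhibitor of urokinase, ran from 0 to 5.13 CPM.

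Other genes of the same cascades were counted by direction too. From 66 further genes on a list of complement and coagulation, 51 were tested, and none was called in any comparison by edgeR. Of 24 complement genes 20 were below 0 for genotype without drug (46.3% of all genes), with 6 lower at an unadjusted p under 0.05 (6.65%). Of 27 coagulation genes 20 were below 0, with 4 lower and 1 higher (5.51%). Kng2, a kininogen gene, stood at 9.12, 9.99 and 5.51 CPM in treated labelled heterozygous tumours, 6.18, 6.55 and 4.48 CPM in treated wild-type tumours, 1.10, 8.89 and 1.89 CPM in heterozygous tumours without drug, and 34.1, 25.2 and 23.8 CPM in untreated wild-type tumours, with a genotype value of -2.81 ± 0.65 without drug. Cd93, a surface protein of endothelial and myeloid cells, had a genotype value of -1.06 ± 0.25 without drug.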

How the data were processed

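The data are 12 RNA-seq libraries, each from the snap-frozen pancreatic tumour of 1 mouse, made as stranded total RNA libraries after ribosomal RNA depletion, per the labels' protocols. The deposited values are expected counts per Ensembl gene, made by the authors with RSEM on GRCm38, per the submitters' processing notes; every value is whole. The sources used here give no RSEM version, annotation or strand setting. RSEM divides reads shared by near-identical genes.

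Symbols and positions came from GENCODE M21 (GRCm38), which matched 52403 of 52636 IDs. Groups and replicate numbers came from the titles. In R 4.3.3 with edgeR 4.0.16, filterByExpr left 24065 genes (at least 99.865% of the counts) and TMM factors ran from 0.897 to 1.09. All 12 libraries entered 1 fit of edgeR's quasi-likelihood model, with robust settings and a mean for each group (biological coefficient of variation 46.4%), 7 contrasts, Benjamini-Hochberg adjustment over all genes and a threshold of 0.05. A ± is the SE beside a log2 fold change and the SD beside CPM. DESeq2 1.42.0 was an alternative; others were its size factors, no filter, a replicate block, a covariate for Xist and Y-linked RNA, and each library left out. The test was checked on simulated counts. Total counts per library set the precision of low genes; intervals come from the model.

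The members and the lists were chosen with earlier results of these data known. Genes described in detail are the 5 with the smallest p in each comparison and the 2 highest of each role; all others named, such as Cfi, C1qb, C1ra, Procr and Cr1l, were added after their values were seen. Of other cascade genes, those with the 2 smallest p of a comparison could be named. Promoters came from RefSeq on GRCm38.p6. The table of the whole series holds the same values and was not used. The result of 1 other cascade gene is not reported here.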

Additional observations from a re-analysis of the deposited data

Results flagged for a closer look

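Gemcitabine tumours lay on opposite sides of untreated tumours in the 2 genotypes, with no overlap on either side, for 3 genes (1.49% of all genes tested). Tfpi2, Proc and F2r lay above untreated tumours in those labelled heterozygous and below them in wild-type ones. The difference between the drug effects was 2.21 for Tfpi2, 3.32 for Proc and 0.966 for F2r on the log2 scale, with adjusted p of 0.252, 0.256 and 0.277 in edgeR. Proc also lay above wild-type in treated and below it in untreated tumours, again without overlap (1.19% of all genes tested), which is the same difference of 3.32. Proc rests on treated labelled heterozygous mouse 3 at 12.4 CPM: over 17 other settings of edgeR its difference ran from 1.70 to 3.76, and its genotype value with drug, 2.13, was 0.51 without that mouse.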

How the results depend on the processing

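No gene of the set was called by edgeR under any alternative but 1: Tfpi for drug over both genotypes without untreated heterozygous mouse 1 (-1.30, adjusted p = 0.0248), so the count there ran from 0 to 1. DESeq2 called 7 of the genes for genotype without drug, 4 for drug in wild-type tumours and 4 for the difference between drug effects. Over all genes DESeq2 called 703 for genotype without drug, 237 for genotype with drug, 120 for drug in wild-type, 170 for drug in tumours labelled heterozygous, 652 for the difference, 304 for genotype over both treatments and 29 for drug over both genotypes. All-gene calls for genotype without drug were 10 with no filter and 2 in a fit of those 2 groups alone, against 4; for genotype with drug they were 0 with the replicate block, 0 with the covariate for Xist and Y-linked RNA and 12 in the fit of the 2 groups, against 1; for genotype over both treatments 4 with the replicate block and 3 with the covariate, against 8. Leaving out each library gave 2 to 12, 0 to 4, 0 to 1, 2 to 9, 2 to 7, 3 to 13 and 2 to 7 calls over all genes in the same 7 comparisons. The covariate turned the genotype value with drug to -0.42 for C3 and 0.19 for F3. Of 650 values of named genes under the alternatives 634 kept direction and side of the threshold, and 14 passed it where the reported value did not. Among the genes of the set, those with an unadjusted p under 0.05 for genotype with drug numbered between 1 and 12 when a library was left out (5.03 to 8.52% of all genes). Adding counts of near-identical copies, an alternative chosen after seeing the data, changed no call.

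Same-numbered mice did not deviate together (correlations from -0.272 to 0.184, 5 of 18 above 0.1), so the replicate numbers are not taken to pair samples; with the replicate block 0 genes of the set were called in each comparison, and 19 in place of 23 had an unadjusted p under 0.05 for the difference between drug effects. Genes under 1 CPM carry few counts, and their fold changes are imprecise.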
